A study of Mus musculus with 30 samples.

Results

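The genes described here encode the proteins of the cytosolic ribosome. They were chosen by name: every mouse symbol made of Rpl, Rplp or Rps and a number, plus Rpsa, with the S6 kinase genes, Rps19bp1, Rpl7l1 and the pseudogenes marked -ps left out. This gave 90 of the 46078 genes in the deposited count table, 53 for the large subunit and 37 for the small subunit. Of these, 81 reached 10 CPM (counts for every 1000000 fragments of the scaled library) in at least 1 library, 47 of the large and 34 of the small subunit, and 79 had a mean of at least 50 CPM. Another 5 stayed under 10 CPM in every library (Rpl24, Rpl37rt, Rpl6l, Rps12l1 and Rps27rt). Rpl10l, Rpl39l, Rpl3l and Rps4l, copies of other members, had no fragment in any library, which in the shallowest one puts their level at no more than 0.0926 CPM (3 fragments). The names used in the rule miss Fau, a ribosomal protein made as a fusion with a ubiquitin-like sequence, which is given beside the comparison lists.

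The cells were C2C12, an established line of mouse myoblasts that divide in serum and can fuse into myotubes. All samples were growing cells kept in 20% fetal bovine serum, given a Hoechst dye that binds DNA (15 minutes), then separated by DNA content into fractions called G1, S and G2/M. The labels name no genetic change and no drug, and the question the RNA counts can answer is how RNA levels differ between the 3 sorted fractions. The RNA-seq samples were 6 of the 30 in the series, 2 for each phase, and the 24 ChIP-seq samples were not analysed here.

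The eukaryotic ribosome joins a small subunit, which holds the mRNA and reads the codons, to a large subunit, which forms the peptide bonds. Most of its proteins are present once in each particle, and their genes are spread over almost every chromosome. Their mRNAs are abundant, short and stable, and start with a tract of pyrimidines, the 5′ terminal oligopyrimidine (TOP) motif, through which the kinase mTOR and the RNA-binding protein Larp1 control their translation. A growing cell has to double its ribosomes in each cycle. Levels of an mRNA in sorted phases are relative to the other RNA in the same library, so they do not count molecules per cell.

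Promoters of these genes were read from RefSeq, build GRCm38.p6, as windows of 300 bases, from 250 before the start to 50 after it. A window was found for 59 of the 81 members. The stretches printed here run from 100 bases before the start to 20 after it. They belong to the members with the lowest and the highest ratio of S to G1 in their subunit, and to Rps25, next lowest. Only 17 members were considered, whose only RefSeq start lay within 5 bases of the start in the deposited table. Highest thus means among these 17, and Rps26, at -0.38, lay near the median of all measured small subunit members, -0.40. Capitals mark CCGGAAG, the core of the site of ETS factors such as Gabpa, on either strand. A second motif, CTTTCC, part of a pyrimidine tract, was searched in the same way and occurs in none of these 5 stretches. Of the members next lowest or next highest, Rps25 alone is printed. Its stretch holds CCGGAAG, while those of Rpl14, Rpl10 and Rps13 hold neither motif.
Rpl37a (lowest, large subunit, chr1:72711160-72711279, plus strand): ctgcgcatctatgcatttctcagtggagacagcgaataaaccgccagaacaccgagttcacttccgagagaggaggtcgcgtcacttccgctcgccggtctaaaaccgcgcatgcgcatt
Rpl13 (highest, large subunit, chr8:123102250-123102369, plus strand): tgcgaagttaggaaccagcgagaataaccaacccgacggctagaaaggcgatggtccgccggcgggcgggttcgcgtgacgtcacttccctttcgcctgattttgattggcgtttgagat
Rps28 (lowest, small subunit, chr17:33824543-33824662, minus strand): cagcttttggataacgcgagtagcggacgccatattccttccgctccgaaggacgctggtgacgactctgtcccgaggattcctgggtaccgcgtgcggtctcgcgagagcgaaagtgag
Rps25 (next lowest, small subunit, chr9:44407614-44407733, plus strand): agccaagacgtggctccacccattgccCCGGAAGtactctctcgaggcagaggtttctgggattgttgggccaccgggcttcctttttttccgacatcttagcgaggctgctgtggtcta
Rps26 (highest, small subunit, chr10:128626487-128626606, minus strand): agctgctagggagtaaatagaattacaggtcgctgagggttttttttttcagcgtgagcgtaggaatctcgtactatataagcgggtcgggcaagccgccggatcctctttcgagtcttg

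Over the full windows, CCGGAAG on either strand occurred in 25 of the 59 members (42.4%), against 9.93% of 27025 genes with a window of the same length. The genes of the mitochondrial ribosome held it in 37.7% of windows. CTTTCC occurred in 30 of 59 members (50.8%), 21 of 35 in the large subunit and 9 of 24 in the small subunit, against 29.3% of all genes. GGGCGG, the core of the Sp1 site, occurred in 38 of 59 members (64.4%) and 38.2% of all genes, AAGATGGC, of the Yy1 site, in 5 (8.47%) and 3.19%, and TATAA, of the TATA box, in 17 (28.8%) and 28.0%. Of the 69 mitochondrial ribosome genes with a window, 30.4% held CTTTCC, 49.3% GGGCGG, 17.4% AAGATGGC and 14.5% TATAA. All motifs were searched on both strands. Genes with more than 1 window had more chances to hold a motif. The median log2 ratio of S to G1 was -0.36 in members with CCGGAAG and -0.44 in members without it, and -0.45 with CTTTCC and -0.38 without. These are descriptions of the letters in the windows, and the motifs were chosen after promoters had been seen.

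Library depth ran from 32395232 to 35907974 assigned fragments. The 2 columns of a phase were close to what repeated sampling of 1 library gives, with chi-square over its degrees of freedom of 1.00, 1.03 and 1.15 for G1, S and G2/M, the last somewhat above counting noise. The labels call the 2 columns of a phase replicates and do not say whether these were separate cultures, libraries or runs. Because of their closeness each pair was added up and treated here as a single library, a choice the labels do not settle, so no value has a replicate error, no test was made, and intervals cover counting error only. Only the S titles carry a lot mark, and an effect of the lot cannot be told apart from one of the phase. The 12 G2/M check genes, among them the cyclin B genes, summed to 1148, 3423 and 4746 CPM in G1, S and G2/M. The 12 G1/S check genes, among them the MCM helicase genes, summed to 2282, 1051 and 914 CPM, so they were higher in the G1 than in the S library. Of 7 myoblast markers 6 reached 10 CPM, and of 10 markers of other cell types none did and 7 were at 0.

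Ribosomal protein mRNAs took 4.17% of all fragments of the G1 library (exact 95% binomial interval 4.16 to 4.18), 3.14% of the S library (3.13 to 3.14) and 3.62% of the G2/M library (3.61 to 3.62). The 2 columns of each phase gave 4.18 and 4.17%, 3.14 and 3.14%, and 3.62 and 3.61%, so columns of different phases did not overlap. The large subunit took 2.39, 1.81 and 2.08%, and the small subunit 1.78, 1.33 and 1.54%. Both subunits thus had the order G1, G2/M, S. In such bulk RNA, a different mix of cells in a sorted fraction and a different amount of these mRNAs per cell cannot be told apart. Fragments of the large over those of the small subunit stood at 1.35, 1.36 and 1.35, so the balance of the subunits hardly moved.

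Per length of exon, the members were among the most abundant mRNAs of these cells. Their median was 245.1 FPKM (the CPM divided by the kilobases of exon, here the mean over the 3 libraries), against 10.46 FPKM in the 8990 genes outside the list that reached 10 CPM. In the small subunit Rps12, a protein of the head of the subunit, led with 1767, 1278 and 1245 FPKM in G1, S and G2/M. Rps16, Rps4x, Rps14 and Rps7 followed with means of 929, 862, 825 and 794 FPKM. The ranks leave out the -ps copies. Among these Rps2-ps10, with 965 exon bases, was at 2004, 2180 and 920 CPM in G1, S and G2/M, so the rank of Rps2 is uncertain. In the large subunit Rpl4, which lines the exit tunnel for the new peptide, led with 953, 698 and 786 FPKM. Rpl8, Rpl41, Rpl11 and Rpl32 followed with means of 729, 697, 643 and 615 FPKM. Rpl41 is a peptide of unusually small size. The order of members was almost the same in each library: Spearman's rho of FPKM between pairs of libraries was 0.975 to 0.982 over 46 large subunit members and 0.955 to 0.982 over 33 small subunit members, a description over genes that share libraries. The exon length in the table joins all isoforms, so Rps15a with 6262 exon bases and Rps19 with 4685 rank low at 60.2 and 41.1 FPKM. Rpl29, at 10.3 FPKM, and Rps3a2 had the lowest levels among the 81.

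**Figure D1:**
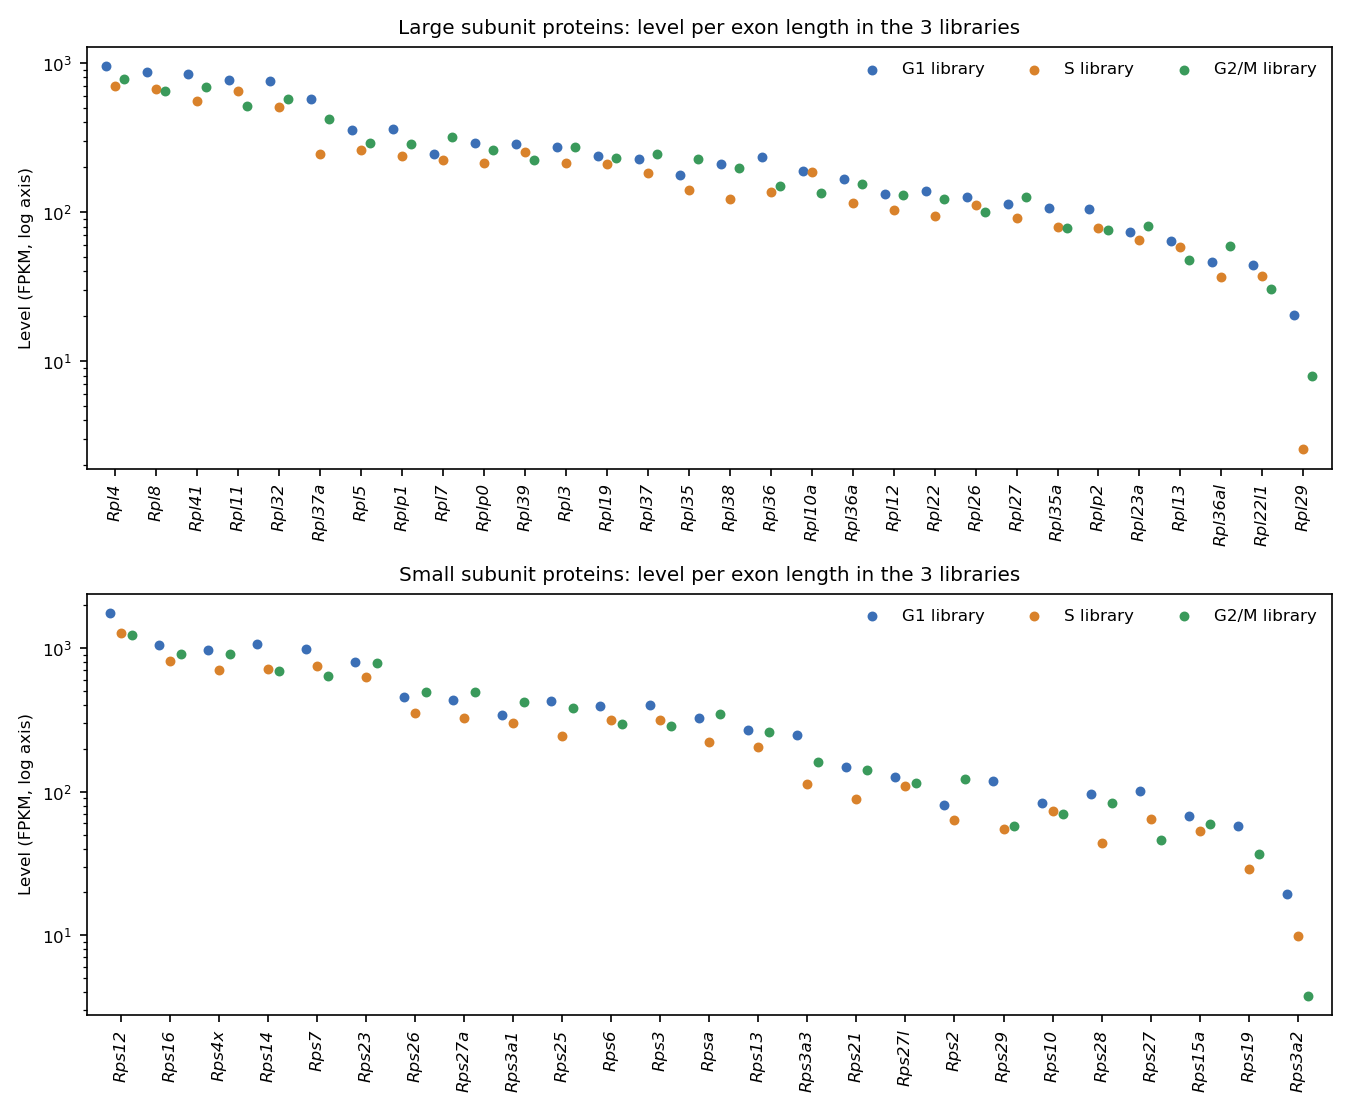
Level of 55 of the 81 members that reached 10 CPM, among them those the text names, in FPKM on a log axis, in the G1, S and G2/M libraries (1 point per library), sorted by mean level within each subunit. The S point lies below the G1 point for every member shown, and the order of members hardly changes between libraries.

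In S against G1, the mRNA of each of the 81 measured members, counted without pseudogene copies, was lower in the S library. All 47 large subunit members had a log2 ratio under 0, with a median of -0.42 (1.33-fold lower), and all 34 small subunit members had one, with a median of -0.40 (1.32-fold lower). Among all 8773 genes that reached 10 CPM in 1 of these libraries, 50.4% were lower and the median was -0.01. Lower by 20% or more were 34 large and 28 small subunit members, against 30.2% of all genes. Lower by 2-fold or more were 2 large and 4 small subunit members, 6 of 81 in all, against 8.59% of genes at this level of 10 CPM. None was higher, against 49.6% of all genes, though Rps2, described with the gene copies, turned to 0.093 with its copy Rps2-ps10 added. The exact 95% counting interval lay below 0 for 80 of the 81, against 44.7% of all genes, and held 0 for Rpl10a alone. With the level set at a mean of 50 CPM, 49.1% of 4239 genes were lower and 22.3% lower by 20% or more. By 2-fold or more, 5 of 79 members (6.33%) and 2.0% of genes were lower at that level.

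The members with the lowest ratios of S to G1 came from both subunits. Rpl37a, a zinc-binding protein of the large subunit (chr1:72711260-72713809), had 336.0 and 337.6 CPM in the 2 columns of G1, 143.3 and 142.8 in S, and 242.3 and 247.6 in G2/M. Its log2 ratio of S to G1 was -1.24 (counting interval -1.28 to -1.19). Rps28, in the head of the small subunit (chr17:33819027-33824562), had 141.6 and 141.1 CPM in G1, 64.3 and 64.9 in S, and 119.7 and 123.6 in G2/M, a log2 ratio of -1.13 (-1.20 to -1.06). In both genes the S columns were lowest by far, and no column of 1 phase reached those of another. Rps29, a zinc-binding protein of the head, was at 82.4, 38.2 and 40.1 CPM in G1, S and G2/M, a log2 ratio of -1.11. Rps19, the gene most often mutated in Diamond-Blackfan anemia, was at 269.8, 134.8 and 172.8 CPM, a log2 ratio of -1.0. Rps25 (-0.82), Rpl38 (-0.79), Rpl36 (-0.76) and Rps21 (-0.75) came next, apart from Rpl29, Rps3a2 and Rps3a3, which are described with the gene copies.

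At the other end, Rpl10a, the protein of the L1 stalk, past which spent tRNA leaves, barely differed between these libraries: 452.9 and 435.3 CPM in G1, and 443.6 and 430.3 in S. Its columns overlapped, and its log2 ratio was -0.02 (-0.06 to 0.01), which turned to 0.0097 without the first G1 column. Rpl7, Rpl13 and Rpl39 had log2 ratios of -0.14, -0.15 and -0.18, and Rps3a1 and Rps10 of -0.18 and -0.19. All were lower in S, by less than 20%.

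**Figure D2:**
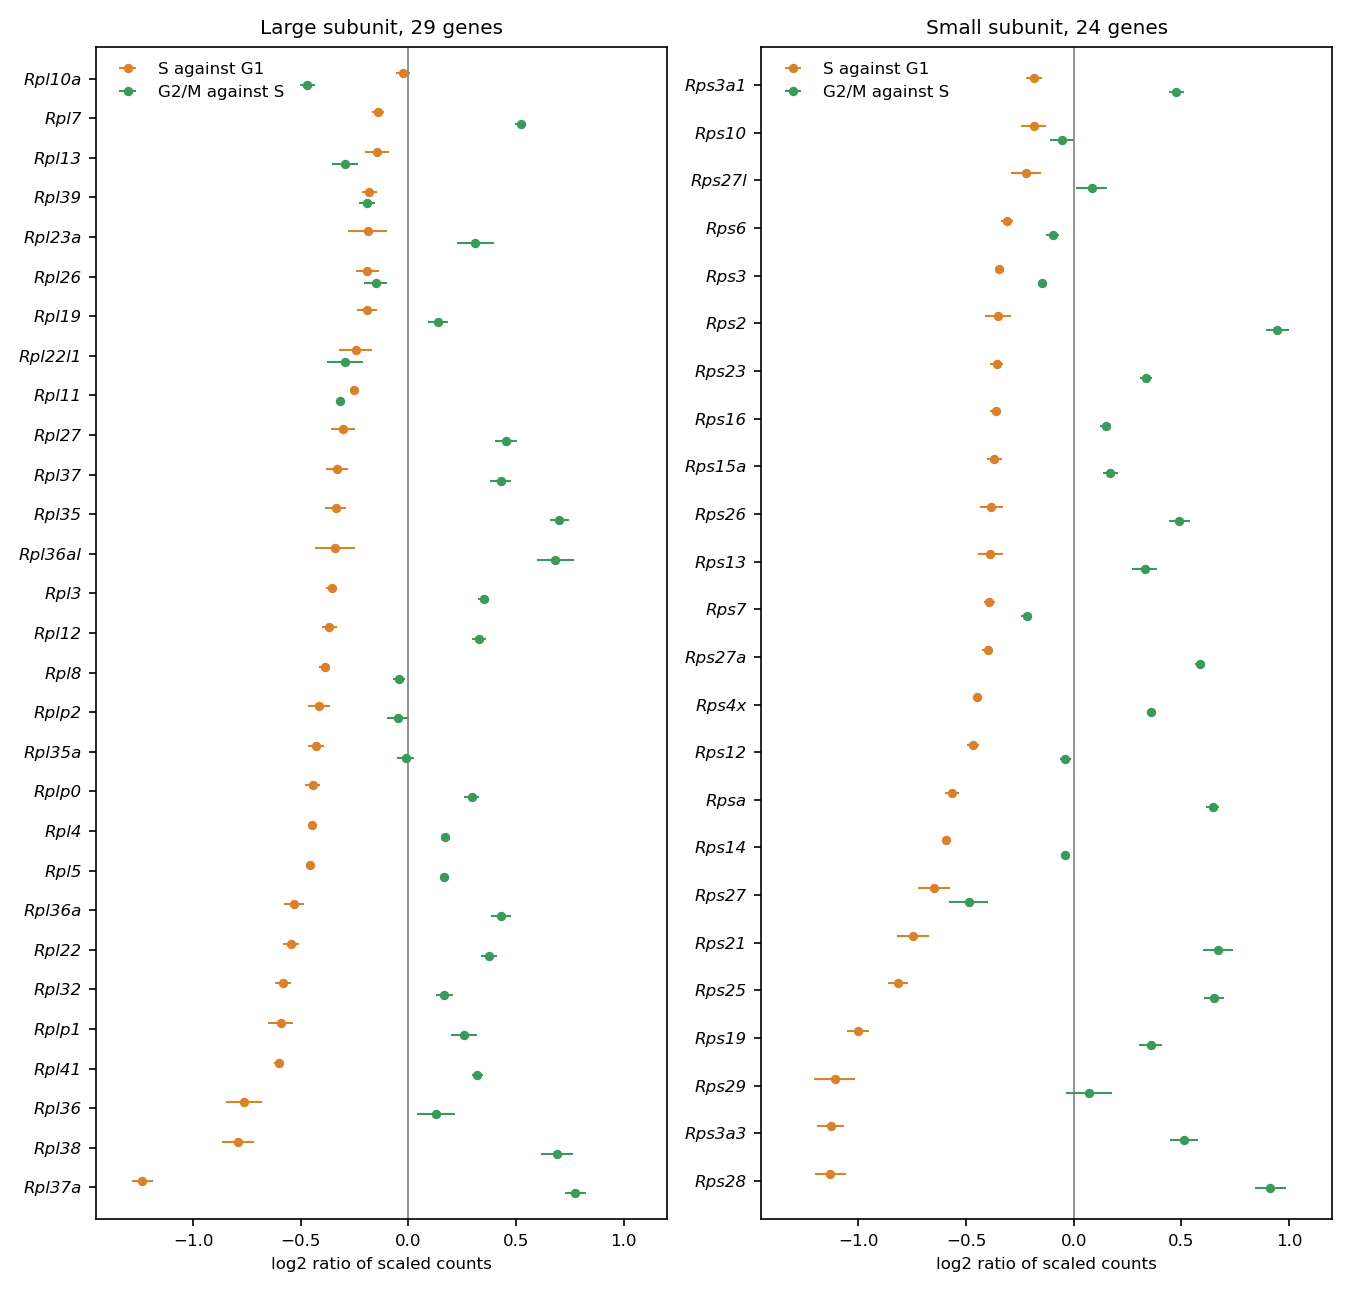
Log2 ratio of scaled counts for 53 of the 79 members averaging 50 CPM or more, among them those the text names, S against G1 (orange) and G2/M against S (green), sorted by the first; bars are exact 95% counting intervals and leave out all other error. All orange points lie left of 0, from -1.24 for Rpl37a to -0.02 for Rpl10a, while green points lie on both sides, 37 right and 16 left.

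The same difference ran through the functional groups of each subunit, since every measured member was lower in S. By 20% or more, 62 of all 81 members were lower (76.5%), against 30.2% of all genes. The P-stalk, a lateral protrusion that recruits the elongation factors, is made of Rplp0, Rplp1, Rplp2 and Rpl12, and all 4 were lower in S by 20% or more. Rplp0, the base of the stalk, was at 484.1, 355.8 and 436.1 CPM in G1, S and G2/M. The stalk's median log2 ratio of S to G1 was -0.43. Rpl5 and Rpl11 carry the 5S rRNA into the large subunit and, when free, bind Mdm2, the ubiquitin ligase of p53. Their ratios of S to G1 were -0.46 and -0.25. Of the 8 proteins around the exit tunnel all were lower in S, 4 of them by 20% or more, with a median of -0.26, and Rpl3, which reaches to the peptidyl transferase centre, was at -0.36.

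In the small subunit all 13 proteins of the head were lower in S, 11 of them by 20% or more, with a median of -0.38. Of all 34 small subunit members 28 were lower by 20% or more, and of all genes 30.2%. The 5 proteins of the decoding side and platform (Rps13, Rps14, Rps23, Rps26 and Rpsa) were all lower by 20% or more, with a median of -0.39. Rps14, a platform protein, was at 1484, 984 and 959 CPM in G1, S and G2/M, so its S and G2/M levels lay close together and under G1. Rps6, the substrate of the S6 kinases, was at 624, 504 and 471 CPM. Rps3, at the mRNA entry channel, was at 1800, 1417 and 1281 CPM. Rps3 and Rps6 were thus lowest in G2/M, unlike most members.

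In G2/M against S, most members were higher in G2/M, without the uniformity of the first comparison. This comparison shares the S library with the one before. Of 46 large subunit members 36 were higher, with a median log2 ratio of 0.23, and of 33 small subunit members 26 were higher, with a median of 0.33. Among all 8752 genes tested 50.5% were higher, with a median of 0.01. Higher by 25% or more, the same fold as 20% lower, were 14 large and 17 small subunit members, Rps2 among them (28.1% of all genes), and 1 of each was lower by 20% or more, Rpl10a and Rps27 (26.9% of all genes). None of these 79 members differed by 2-fold, while 7.12% of genes were higher and 6.6% lower by that much. At a mean of 50 CPM or more, which all 79 reached, only 0.85% of genes were higher and 1.49% lower by 2-fold. At that level 19.7% of genes were higher by 25% or more and 21.0% lower by 20% or more. Counting intervals lay above 0 for 36 and 25 members (43.9% of genes), below 0 for 8 and 6 (42.9%), and held 0 for Rpl35a, Rplp2, Rps10 and Rps29.

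The largest ratios upwards belonged in part to the genes that were lowest in S. The ratios of S to G1 and of G2/M to S share the S library, so this link is partly built in. A low S value lowers the former and raises the latter. Rps28 (0.91), Rpl37a (0.78), Rpl38 (0.69), Rps21 (0.67) and Rps25 (0.65) were lower in S than in either other library. Rps29, whose ratio of S to G1 was like that of Rps28, had a G2/M level close to its S level, with a ratio of 0.07 (-0.04 to 0.18). Rpl35, at the exit tunnel, was at 217.5 and 221.8 CPM in G1, 175.3 and 172.5 in S, and 286.4 and 279.2 in G2/M, a ratio of 0.70 to S and of 0.36 to G1. Its G2/M columns stood above those of both other phases. Rpsa, which also occurs as a laminin receptor at the cell surface, was at 610.8, 412.8 and 646.0 CPM (0.65). Rps27a, made as a fusion with ubiquitin, was at 853.8, 647.0 and 971.6 CPM (0.59).

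A smaller set was lowest in G2/M. Rpl11 was at 2069, 1738 and 1396 CPM in G1, S and G2/M, with ratios of G2/M of -0.32 to S and -0.57 to G1. Its partner Rpl5 was at 1403, 1023 and 1148 CPM, higher in G2/M than in S (0.17). The pair that binds the 5S rRNA therefore differed in opposite directions between these 2 libraries. Rpl10a was at 316.3 and 314.6 CPM in the G2/M columns, a ratio of -0.47 to S. Rps27 had 103.5 and 108.6 CPM in G1, 67.5 and 67.9 in S, and 49.2 and 47.4 in G2/M, with ratios of -0.65, -0.49 and -1.14 for S to G1, G2/M to S and G2/M to G1. Rps27l, its close copy and a known p53 target, was at 103.5, 88.7 and 94.0 CPM, lowest in S. Per length, Rps27 and Rps27l stood at 102 and 127 FPKM in G1 and at 46.3 and 115 FPKM in G2/M. Fragments of near-identical copies may have been counted for either copy or for none.

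Other pairs of copies were compared in the same way. Rpl22, an RNA-binding protein of the large subunit, was at 401.4, 274.9 and 356.2 CPM in G1, S and G2/M. Rpl22l1, its paralog, was at 88.2, 74.5 and 60.8 CPM, lowest in G2/M where Rpl22 was higher than in S. Rpl36a was at 275.7, 190.7 and 257.0 CPM and Rpl36al, its close copy, at 62.9, 49.8 and 79.9 CPM, so both were lowest in S. The ratio of G2/M to S was 0.43 for Rpl36a and 0.68 for Rpl36al.

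In G2/M against G1, most members were lower in the G2/M library. The G1 library is shared with the first comparison and the G2/M library with the second. Of 47 large subunit members 41 were lower, with a median log2 ratio of -0.26, and of 34 small subunit members 26 were lower, with a median of -0.21. Among all 8850 genes tested 50.2% were lower. At a mean of 50 CPM or more, 77.3% of other genes of up to 1000 exon bases were lower, against 80.0% of members. From there to 2000 bases the shares were 64.2 and 71.4%, to 4000 bases 56.2 and 95.2%, and above 43.7 and 100%. Of the members from 1000 to 2000 bases, 13 of 16 in the large and 7 of 12 in the small subunit (58.3%) were lower. Lower by 20% or more were 18 large and 12 small subunit members, 30 of 81, a share near the 30.9% of all genes. At a mean of 50 CPM or more they were 28 of 79 (35.4%), against 24.4% of genes. Higher by 25% or more were 3 large subunit members and, in the small subunit, Rps2 alone, against 31.2% of all genes; with Rps2-ps10 added Rps2 was at -0.91. Counting intervals lay below 0 for 40 and 25 members (44.8% of genes) and held 0 for Rpl3 and Rps23; Rpl3 went from -0.0051 to 0.024 when scaled by library size alone. Rpl29, Rps27, Rps29 and Rps3a2 were lower by 2-fold (9.81% of all genes). At a mean of 50 CPM or more 2 of 79 members were lower by 2-fold, against 2.57% of genes. Above G1 in G2/M stood 14 members (49.8% of all genes), among them Rpl37, Rpl23a, Rpl27, Rpl36al, Rpl35 and Rpl7 in the large and Rpsa, Rps26, Rps27a, Rps3a1 and Rps2 in the small subunit. Rpl7, at 660, 599 and 861 CPM in G1, S and G2/M, had the largest ratio to G1 of the large subunit, 0.38.

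Over the 3 libraries the G1 library was the highest for 67 of the 81 members (36.4% of 9071 genes) and the lowest for none (36.1%). The S library was the lowest for 63, 37 of the large and 26 of the small subunit (30.8% of genes), and the highest for none (30.3%). The G2/M library was the lowest for 18 (33.1%) and the highest for 14 (33.3%). The most common order, G1 above G2/M above S, was seen for 31 large and 18 small subunit members.

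Exon length moved with the ratio in these libraries. Members have little exon sequence, with a median of 1535 bases (range 404 to 6262) against 4255.5 in the other genes. At a mean of 50 CPM or more, other genes had a median log2 ratio of S to G1 of -0.35 at up to 1000 exon bases (75 genes), -0.23 from there to 2000 (369 genes), -0.08 from there to 4000 (1226 genes) and 0.14 above (2490 genes). The members in the same classes had medians of -0.47 (25 genes), -0.41 (28), -0.38 (21) and -0.37 (5). In the shortest class 80.0% of the other genes and 100% of the members were lower. Members were thus lower in S at every length, and with both subunits pooled the distance to other genes was smallest among the shortest. By subunit, that class had medians of -0.59 in the large (10 genes) and -0.39 in the small subunit (15 genes). The shortest small subunit members thus lay close to other genes, and the large subunit members further below. From 1000 to 2000 bases the medians were -0.36 in the large (16 genes) and -0.43 in the small subunit (12 genes). Medians of the other genes in G2/M against G1 were -0.24, -0.13, -0.07 and 0.07 in these classes. Those of the members were -0.27, -0.15, -0.29 and -0.26, so pooled members of up to 2000 exon bases lay close to other genes. The subunits differed there. Large subunit members had medians of -0.42 up to 1000 bases and -0.19 from there to 2000, below other genes. Small subunit members had -0.17 and -0.09, above other genes. The cause of the length trend was not tested.

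After the median of the 500 non-member genes of nearest exon length was subtracted, the median ratio of S to G1 was -0.25 in either subunit, and 41 of 47 large and 29 of 34 small subunit members stayed below those genes. G2/M against S then had medians of 0.16 and 0.23. G2/M against G1 had -0.15 and -0.085, with 36 of 47 and 19 of 34 members below genes of their length. For the shortest members those 500 genes reached up to 1360 exon bases, so the comparison was with somewhat longer genes. With only the 50 genes of nearest length that averaged 50 CPM or more, a choice added after the data were seen, the S against G1 medians were -0.20 and -0.30, with 39 of 47 and 27 of 34 members below. Rps19, Rps28 and Rpl37a were then at -0.93, -0.91 and -0.85 in S against G1, and Rpl10a and Rpl35 were 0.18 and 0.043 above genes of their length. Within the members the ratio of S to G1 followed exon length less than in other genes, with Spearman's rho of 0.22 over 79 members and 0.36 over 4160 other genes, values that share the same libraries.

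**Figure D3:**
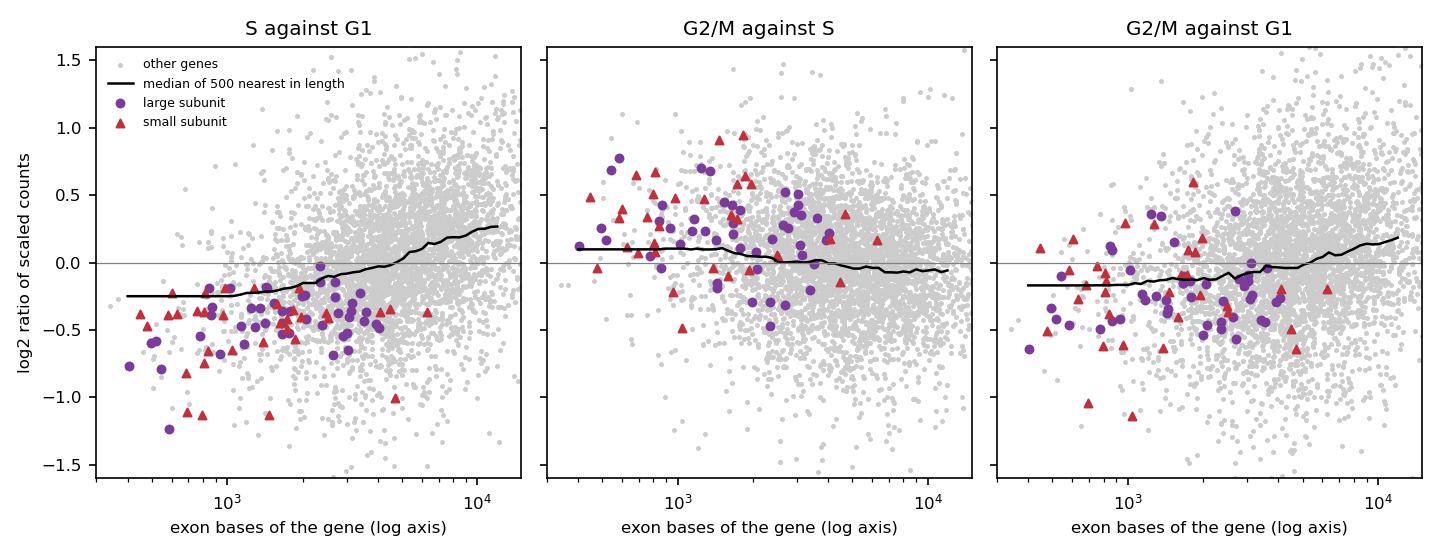
Log2 ratio of scaled counts against exon bases of the gene (log axis) for each comparison, in genes averaging 50 CPM or more: other genes in grey, large subunit members as circles, small subunit members as triangles, and as a line the median of the 500 other genes of nearest length, which is flat at the left since the 500 shortest reach to 2114 bases. Some grey points lie outside the axes. Most members fall below the line in S against G1 and above it in G2/M against S.

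Near-identical copies make single members uncertain. The table lists 268 ribosomal protein symbols marked -ps, of which 139 had a fragment and 5 reached 10 CPM. The largest, Rps2-ps10, outnumbered its parent gene Rps2, a protein of the mRNA entry channel. The fragments of Rps2 numbered 4771, 4183 and 8155 in G1, S and G2/M, and those of Rps2-ps10 64258, 78115 and 33372. Rps2 alone had the largest ratio of G2/M to S of any member at 50 CPM, 0.95, while its copy had -1.24 and both added -1.0. For G2/M against G1 the 3 values were 0.60, -1.12 and -0.91, and for S against G1 they were -0.35, 0.12 and 0.093. The direction for Rps2 therefore turned in all 3 comparisons once its copy was added, so its own direction is uncertain; it enters the counts of members as listed, without its copy. Rpl29 was at 16.3, 2.04 and 6.31 CPM, and with the gene model Gm8210, which RefSeq lists with the synonym Rpl29, its ratio of G2/M to S turned from 1.63 to -1.23 and its ratio of S to G1 went from -3.0 to -0.83. Rps3a1, Rps3a2 and Rps3a3 share most of their sequence, and Rps3a3 (-1.13) and Rps3a1 (-0.18) differed in their ratio of S to G1. With every -ps copy added, the shares of fragments became 4.38, 3.37 and 3.72%, the same order as without them.

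**Figure D4:**
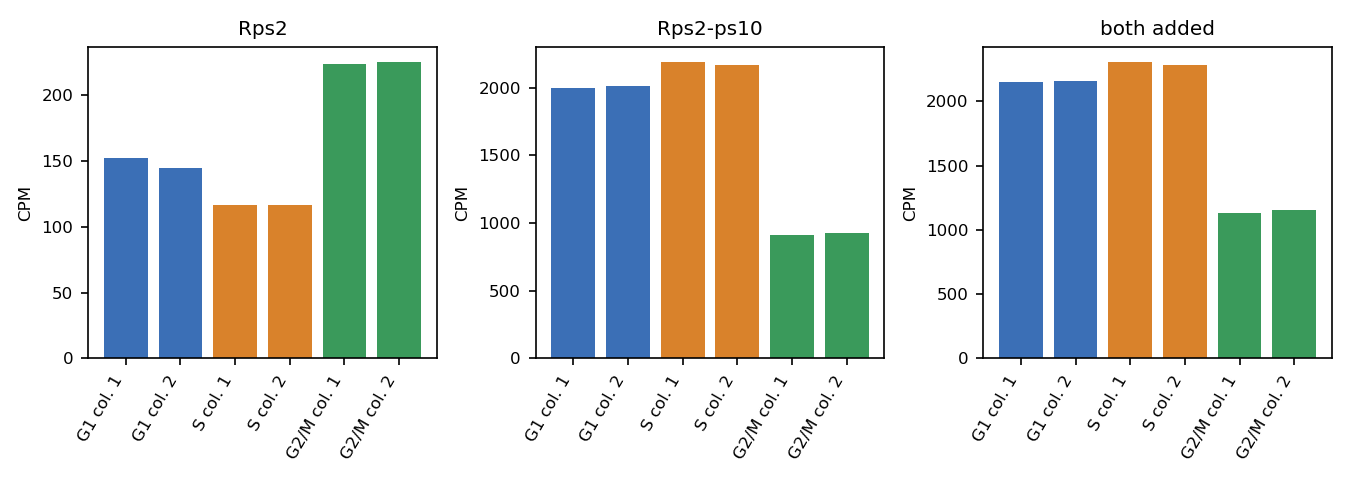
CPM of Rps2, of its copy Rps2-ps10 and of both added, in the 2 columns (col.) of each phase; the vertical scales differ between panels and start at 0. Rps2 was highest in G2/M, where the copy and the sum were lowest.

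Other lists of genes tied to the ribosome gave a background for the members. Among 25 other mRNAs with a TOP motif, the S library was below G1 for 21, for 13 of them by 20% or more, and the median ratio was -0.34. Of all genes 50.4% were below G1, and 30.2% by 20% or more. Rack1, a scaffold protein on the small subunit, was at 543.7, 361.8 and 631.0 CPM in G1, S and G2/M, and Eef1g, of elongation factor 1, at 510.6, 342.5 and 496.8 CPM. Eef1a1 (4392, 4060 and 4510 CPM) and Eef2 (2158, 1901 and 2198 CPM), the main elongation factors, were lower in S by less. In G2/M against G1 this list had a median of -0.04, 14 of 25 lower, where the members' medians were -0.26 and -0.21. Fau, on this list, had a ratio of S to G1 of -0.65.

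Of 51 genes of ribosome biogenesis, 30 were below G1 in the S library, 12 of them by 20% or more, and the median was -0.12; over all genes 50.4% were lower and 30.2% lower by 20% or more. Of 18 measured regulators, such as the mTOR complex and the binding factors of these promoters, 4 were lower and 14 higher, with a median of 0.25, where 49.6% of all genes were higher. Larp1 was at 366.1, 403.7 and 404.0 CPM. Sp1, a zinc finger factor that binds GGGCGG, was at 129.7, 367.2 and 247.6 CPM, and Gabpa at 90.1, 135.3 and 168.8 CPM. The regulators have long exon sequence, with a median of 5847.5 bases.

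Mitochondrial gene lists were set beside the members because their exons are short as well. Subunits of the respiratory chain, with a median of 1514.5 exon bases, were lower in S in 57 of 74 genes, with a median of -0.34, close to the members. Their median in G2/M against S was 0.13, with 48 of 74 higher, and in G2/M against G1 -0.19. Mitochondrial ribosomal proteins that reached 10 CPM were lower in S in 39 of 68 genes, near the 50.4% of all genes. Their median was -0.21 and they ranged from -1.71 to 4.49, where members at that level ranged from -3.0 (Rpl29) to -0.02. At a mean of 50 CPM or more, 10 of 14 mitochondrial ribosomal proteins were lower (71.4%), against 49.1% of all genes, with a median of -0.23. The highest ratio of these 14 was 0.33, where the members at that level ranged from -1.24 to -0.02. These lists were not tested against the members.

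**Figure D5:**
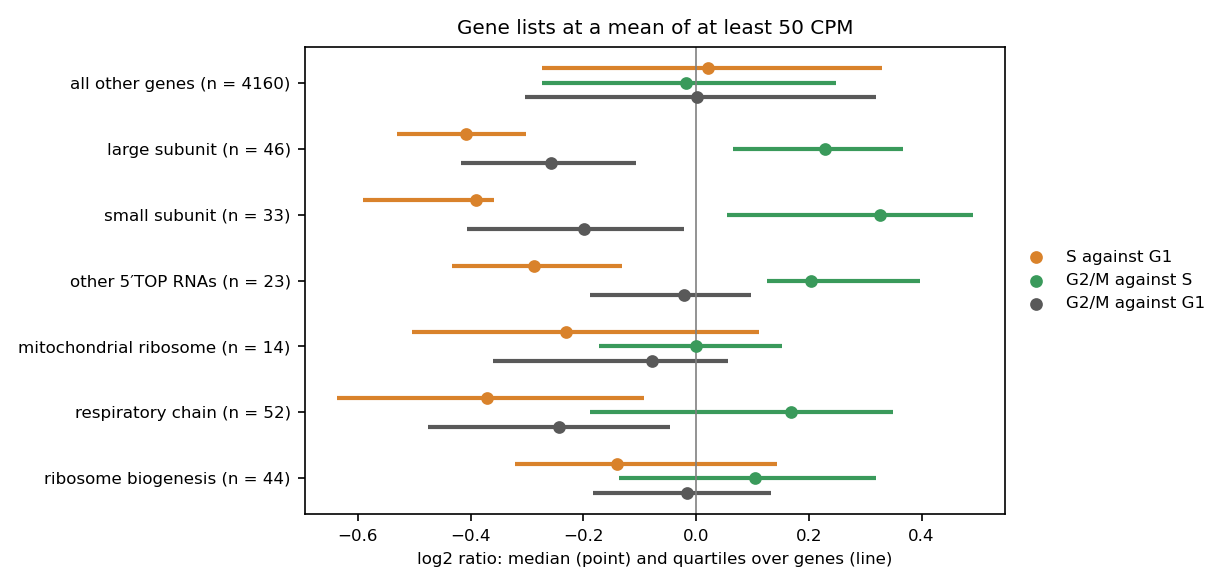
Median (point) and quartiles (line) over genes of the log2 ratio in each list, for genes averaging 50 CPM or more, in the 3 comparisons; n is the number of genes. Both subunits lie left of 0 in S against G1 and right of 0 in G2/M against S, next to the other TOP mRNAs and the respiratory chain, while all other genes centre on 0.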

How the data were processed

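The deposited values are counts of fragments per gene. The authors made them from paired reads with featureCounts 1.5.0-p3 and a GRCm38 annotation from Ensembl, joining the exons of a gene, per the file headers. The command shown there sets nothing about strand, about reads that map to several places or about genes that overlap, so near-identical copies and overlapping genes cannot be separated. The reads were of 101 cycles. The submitters' processing notes name HISAT2 2.1.0, SAMtools 1.6, deepTools 3.5.0, Bowtie2 2.3.0 and R 4.0.1 without a role, and the sources used here give no read trimming. A supplied table gave symbols for 45143 of 46078 genes (98.0%).

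The 2 columns of a phase, named replicates in the labels, were summed and treated as 1 library. CPM values use TMM factors (0.990 for G1, 1.00 for S, 1.01 for G2/M) from edgeR 4.0.16 in R 4.3.3, over 12971 genes with at least 10 fragments in 1 library. FPKM divides CPM by the kilobases of joined exons. A gene entered a comparison at 10 CPM in 1 of its 2 libraries, and counts under 3 fragments were set to 3 for ratios. Exact 95% intervals came from the binomial split of fragments. With each phase treated as 1 library no test was made. The scripts were tested on simulated counts. The members, lists and rule for named genes (highest and lowest levels and ratios, plus fixed members) were chosen with earlier results of these data known; other genes named were chosen after their values were seen. Alternatives were other scalings (library size, DESeq2 1.42.0 size factors, TMM without the members), other filters, subtraction of the ratio of genes of like length, copies added or left out, and each column left out. PCR copies are not independent molecules. Some single genes are not reported here by name, though they enter all counts and medians.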

Additional observations from a re-analysis of the deposited data

How the results depend on the processing

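Other settings were library size alone, DESeq2 size factors, TMM factors without the members, a filter of 50 CPM and no filter beyond 1 fragment. A further one left out the extra copies Rpl22l1, Rpl36al, Rps27l, Rps3a2 and Rps3a3. With each of these, the 6 medians moved by less than the median half-width of the counting intervals of single members. The 6 counts moved by less than 1.5 times. Of 142 ratios of single members, 127 moved by less than their counting error with library size alone and all 142 with either of the other 2 scalings; library size alone turned Rpl3 in G2/M against G1 to 0.024. Subtracting the ratio of genes of nearest exon length moved all 6 medians without turning any: S against G1 to -0.25 in the large and -0.25 in the small subunit, G2/M against S to 0.16 and 0.23, and G2/M against G1 to -0.15 and -0.085. With genes of nearest length at a mean of 50 CPM, an alternative chosen after seeing the data, they were -0.26 and -0.27, 0.15 and 0.23, and -0.15 and -0.10. With only the 50 nearest of those genes, also chosen after seeing the data, they were -0.20 and -0.30, 0.15 and 0.22, and -0.095 and -0.048, and Rpl35 turned to 0.043 in S against G1. Leaving out 1 of the 6 columns gave medians for S against G1 of -0.43 to -0.40 in the large and -0.41 to -0.39 in the small subunit, for G2/M against S of 0.21 to 0.24 and 0.29 to 0.33, and for G2/M against G1 of -0.28 to -0.25 and -0.22 to -0.20. Without the first G1 column Rpl10a turned to 0.0097 in S against G1 and Rpl3 to 0.0078 in G2/M against G1. Adding the copy Rps2-ps10 turned Rps2 to 0.093 for S against G1, -1.0 for G2/M against S and -0.91 for G2/M against G1. Adding Gm8210 turned Rpl29 to -1.23 for G2/M against S. Besides these 4 ratios, 8 others of members with a copy added moved by more than their counting error, and 9 did not. These sums were chosen after seeing the data. No paired analysis was possible because the results come from no test and the numbered columns of a phase were counted as 1 library. Counting intervals of the members compared had median half-widths of 0.035 to 0.038 on the log2 scale.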

Other observations

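Members under 10 CPM in every library belong in no comparison above, and 3 of them had fragments that differed between libraries. Rpl24, a protein at the bridge between the subunits, had 14 and 18 fragments in the columns of G1, 145 and 134 in S, and 2 and 6 in G2/M. Rpl37rt, a copy of Rpl37 that arose by retroposition, had 94 and 76 in G1, 61 and 53 in S, and 3 and 5 in G2/M. Rps27rt, a copy of Rps27, had 0 and 0 in G1, 3 and 1 in S, and 31 and 28 in G2/M. Columns of 1 phase lay close together and those of different phases did not overlap in these 3 genes. Rpl6l and Rps12l1 had at most 9 and 4 fragments in any library. With near-identical copies elsewhere in the genome, fragments of these genes could be counted for another gene or for none, and this was not tested.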
